A study of Rattus norvegicus with 6 samples.

Results

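Müller glia are the main support cells of the retina, and the transcripts described here are the 10 genes Glul, Slc1a3, Kcnj10, Aqp4, Dkk3, Car14, Sox9, Hes1, Clu and Apoe, by which these cells take up glutamate, carry potassium and water, buffer acid, ship lipid and keep their identity. They were taken by name for these roles, under a rule that used no measured value, though with earlier results of these data known. All 10 were found among the 34335 genes of the count table, Car14 under the symbol Ca14 through its gene ID 791259. The libraries came from whole retinas of BN rats labelled WT, whose eyes had received 2 µL into the vitreous. In 3 libraries the injection was DMP, a cationic micelle known from the labels only by that code, at 10 mg/mL in water. In the other 3 it was saline, so the carrier fluid and the micelle differed together between the groups and cannot be told apart. The labels state no age or sex and no interval from injection to collection. The libraries of each group carry the numbers 30, 31 and 33, and since no label ties them to separate rats, the p-values below describe the scatter among these libraries only, some of which may be technical. Total counts were 47842234 to 52529314 per library after DMP and 50900221 to 53255925 after saline.

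A Müller cell spans the retina from the inner limiting membrane to the photoreceptor inner segments. It clears synaptic glutamate, converts it to glutamine and returns that to neurons, and it moves the potassium and water that active neurons release towards the vitreous and the vessels. In retinal injury these housekeeping genes are often described as falling while filament genes such as Gfap rise, a state called gliosis. Retinal RNA was measured here in bulk, so fewer Müller cells and less transcript per cell cannot be told apart.

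After DMP, transcripts of the 10 genes lay close to their levels after saline. Of the 10, 0 passed the threshold of the quasi-likelihood test of edgeR (Benjamini-Hochberg adjusted p under 0.05 over 18571 genes), with 0 higher and 0 lower, against 0.0215% of all genes tested (0.0162% higher and 0.00538% lower). At an unadjusted p under 0.05 the count was also 0, against 4.64% of all genes, and 0 passed with DESeq2 (0.429% of genes) or limma-voom (0.0215%). The DMP and saline libraries overlapped for all 10 in CPM (counts relative to scaled library size), where 9.3% of all genes had groups that did not overlap. Fitted log2 fold changes of DMP over saline were below 0 for 7 genes and above 0 for 3, from -0.15 for Hes1 to 0.080 for Aqp4, with a median of -0.045 against -0.00011 over all genes. The median size of the change was 0.049 on the log2 scale, beside 0.045 over the 10412 genes tested with a mean CPM within the range of these 10. The 95% interval of the difference included 0 for each of the 10 and stayed within 1.21-fold in either direction for 7 of them (Glul, Slc1a3, Kcnj10, Aqp4, Dkk3, Clu and Apoe) and reached 1.25-fold for Car14, 1.27-fold for Sox9 and 1.40-fold for Hes1. The intervals limit the size of a difference and do not show that the groups were equal. Counts of the 10 genes ran from 405 to 107337 per library, far above the low counts at which this table is least certain.

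**Figure D1:**
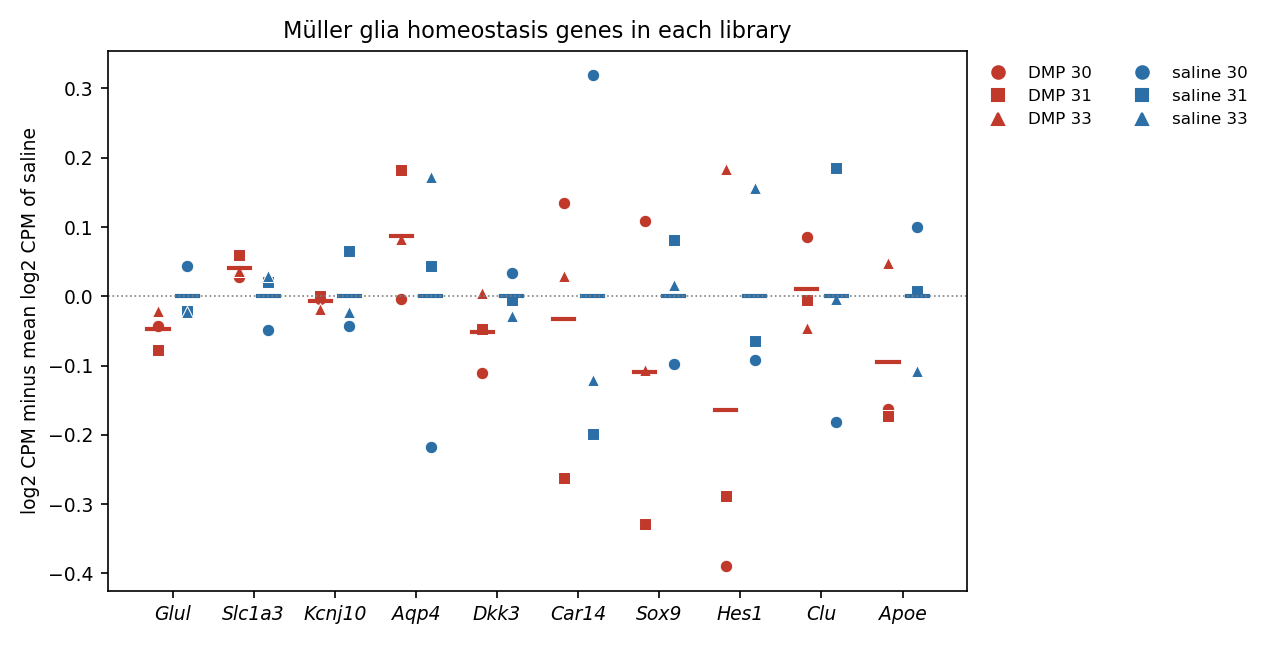
Level of each gene in each library, as log2 CPM minus the mean log2 CPM of the 3 saline libraries, with DMP to the left of saline and symbols for the numbers 30, 31 and 33. Horizontal bars are group means, and the points of both groups overlap for all 10 genes.

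Glul encodes glutamine synthetase, the enzyme that turns glutamate and ammonia into glutamine and that serves as the standard Müller cell marker. It had 1971, 1924 and 2001 CPM in DMP libraries 30, 31 and 33, against 2094, 2001 and 1999 CPM in saline libraries 30, 31 and 33. The groups met at the upper end of DMP, where DMP 33 lay between saline 31 and saline 30. The log2 fold change was -0.048 (SE 0.049), and the interval ran from a level 10.2% lower to one 4.3% higher after DMP (edgeR adjusted p = 0.9998). The overlap was narrow: with median-of-ratios size factors in place of the default factors, all DMP libraries lay below all saline libraries for Glul. Slc1a3 encodes GLAST, the main glutamate transporter of Müller cells. It had 288.0, 294.4 and 289.7 CPM after DMP, against 273.0, 286.4 and 288.1 CPM after saline, and DMP 30 fell just short of saline 33. Its difference of 0.041 (SE 0.045) was among the most precise of the 10, with an interval from 3.9% lower to 10.2% higher.

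Of 14 other genes that carry or convert glutamate and glutamine, all tested, 0 passed in edgeR in either direction (0 at an unadjusted p under 0.05), and their median log2 fold change was -0.022. With limma-voom 0 genes passed in this and each of the 6 pathway lists below, and with DESeq2 the genes of these 7 lists that passed were Lrp2 and Vim. The smallest p-values belonged to Slc7a11, the cystine-glutamate exchanger, Slc38a1, a glutamine carrier of neurons, and Slc1a2, the transporter GLT-1. Slc1a2 averaged 97.5 ± 0.477 CPM in DMP libraries and 101.6 ± 4.75 CPM in saline libraries (SD, n = 3 each), and Slc38a1 382.7 ± 1.10 and 398.3 ± 13.5 CPM. All 3 DMP libraries lay below all 3 saline libraries for these 2 genes, although the steps were small. Slc7a11 averaged 36.2 ± 6.35 CPM after DMP and 42.6 ± 4.05 CPM after saline, with overlapping groups. Adjusted p in edgeR was 0.9998 for all 3.

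Kcnj10 encodes Kir4.1, the inward rectifier channel through which Müller cells take up and release potassium. It had 94.7, 95.0 and 93.7 CPM after DMP, against 92.2, 99.3 and 93.5 CPM after saline. The DMP libraries lay inside the saline range, and the difference was -0.0078 (SE 0.048) with an interval from 7.6% lower to 7.0% higher. Aqp4 encodes the water channel that sits with Kir4.1 in the endfeet of Müller cells and astrocytes. It had 148.8, 169.2 and 157.9 CPM after DMP, against 128.3, 153.8 and 168.0 CPM after saline. Saline 30 was the lowest library for Aqp4 and DMP 31 the highest. The difference was 0.080 (SE 0.086), with an interval from 7.3% lower to 20.6% higher, and its sign rested on saline 30, without which it was -0.023.

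Among 15 tested of 17 other genes of potassium and water handling, 0 passed in edgeR (3 at an unadjusted p under 0.05), and the median was -0.0042. Kcnj16, the usual channel partner of Kir4.1, was among those whose counts were too low to be tested. Kcnj13, the Kir7.1 channel of pigment epithelium, averaged 1.39 ± 0.233 CPM after DMP and 2.91 ± 0.817 CPM after saline (edgeR adjusted p = 0.253), with no overlap. The pigment epithelium markers summed to 40.6 to 86.6 CPM after DMP and 56.9 to 112.6 CPM after saline, with overlapping groups. Of these 9 markers 6 had log2 fold changes below 0 and 3 above 0. In edgeR 4 were lower at an unadjusted p under 0.05, against 4.64% of all genes in either direction, and 0 passed. With DESeq2 1 passed, and 3 were lower with no overlap, against 9.3% of all genes in either direction. Fibroblast markers summed to 38.6 to 65.8 CPM after DMP and 91.7 to 100.1 CPM after saline, with no overlap. Markers of ciliary body and iris summed to 35.8 to 48.2 and 64.3 to 93.4 CPM, also with no overlap. Of these 7 ciliary and iris markers 4 were tested. All 4 were lower with an unadjusted p under 0.05 in edgeR, against 4.64% of all genes in either direction. In edgeR 1 of them passed (adjusted p = 0.0307), with DESeq2 3 and with limma-voom 0. The part of these tissues in the Kcnj13 value was not tested.

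Car14 encodes a membrane-bound carbonic anhydrase on Müller cells and pigment epithelium, which helps to buffer carbon dioxide and acid outside the cell. It had 142.0, 107.8 and 132.1 CPM after DMP, against 161.4, 112.8 and 119.0 CPM after saline. Library 30 was the highest in each group, and the ranges overlapped widely. The difference was -0.041 (SE 0.129), and it became 0.13 without saline 30 and 0.064 without DMP 31. The pigment epithelium markers, which Car14 shares with Müller cells as a site of expression, summed to 40.6 to 86.6 CPM after DMP and 56.9 to 112.6 CPM after saline, with saline 30 highest there too. Their part in the Car14 values was not tested. Of 13 other genes of acid and base handling, 12 were tested and 0 passed in edgeR (1 without adjustment, at p under 0.05), with a median of -0.019. Car12, a carbonic anhydrase also found in ciliary epithelium, averaged 2.23 ± 1.06 CPM after DMP and 4.50 ± 1.48 CPM after saline (edgeR adjusted p = 0.698), with no overlap. The bicarbonate cotransporter Slc4a4 averaged 8.45 ± 0.946 and 10.3 ± 1.79 CPM, with overlapping groups.

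Apoe and Clu encode apolipoproteins, the secreted carriers with which retinal glia pass cholesterol and phospholipid to neurons. Clu, or clusterin, is also a chaperone and a brake on the late complement pathway. Apoe had 410.1, 407.4 and 474.6 CPM after DMP, against 492.1, 461.5 and 425.8 CPM after saline. DMP 30 and DMP 31 were lower than every saline library, while DMP 33 was above saline 31 and saline 33. The difference of -0.094 (SE 0.072) had the smallest unadjusted p of the 10 genes, 0.215 in edgeR, with an interval from 16.0% lower to 4.5% higher. Clu had 452.7, 425.3 and 413.4 CPM after DMP, against 376.5, 485.4 and 425.5 CPM after saline, so that all DMP libraries lay within the saline range. Its difference was 0.0044 (SE 0.081), the nearest to 0 among the 10, with an interval from 11.3% lower to 13.5% higher.

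Apoe is also made by microglia and macrophages. Markers of those cells summed to 97.0 to 145.3 CPM after DMP and 66.3 to 92.95 CPM after saline, with all 11 above 0 in log2 fold change, 0 past the threshold in edgeR or limma-voom, 3 past it in DESeq2, and 0 at a count of 0 in all libraries. Without adjustment, 7 of the 11 had p under 0.05 in edgeR. Their part in the Apoe value was not tested. Among 18 other lipid carriers, receptors and efflux genes, 0 passed in edgeR (2 at an unadjusted p under 0.05), and the median was -0.061. Lrp2, the endocytic receptor megalin, had 24.6, 27.8 and 32.5 CPM after DMP, against 47.9, 40.9 and 47.3 CPM after saline (log2 fold change -0.68, SE 0.103, edgeR adjusted p = 0.0626). It passed with DESeq2, where the adjusted p was 2.97e-07, and in edgeR with a stricter filter of 1 CPM in 3 libraries (0.04). In edgeR it also passed without DMP 33 (0.00804) and with the library number as a block (0.028). Lrp2 did not pass with limma-voom (0.0831) or limma on log2 FPKM (0.426). In edgeR it did not pass with median-of-ratios factors (0.0611), without the count filter (0.0527) or with any other library left out (0.0943 to 0.277). Markers of ciliary body and iris were lower after DMP, as given above, and the part of those tissues in the Lrp2 value was not tested. Lrp1, an Apoe receptor of many cells, averaged 263.4 ± 26.1 CPM after DMP and 300.0 ± 33.2 CPM after saline, and Pltp, a phospholipid transfer protein, 26.4 ± 0.990 and 22.2 ± 3.71 CPM. The groups overlapped for both Lrp1 and Pltp.

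**Figure D2:**
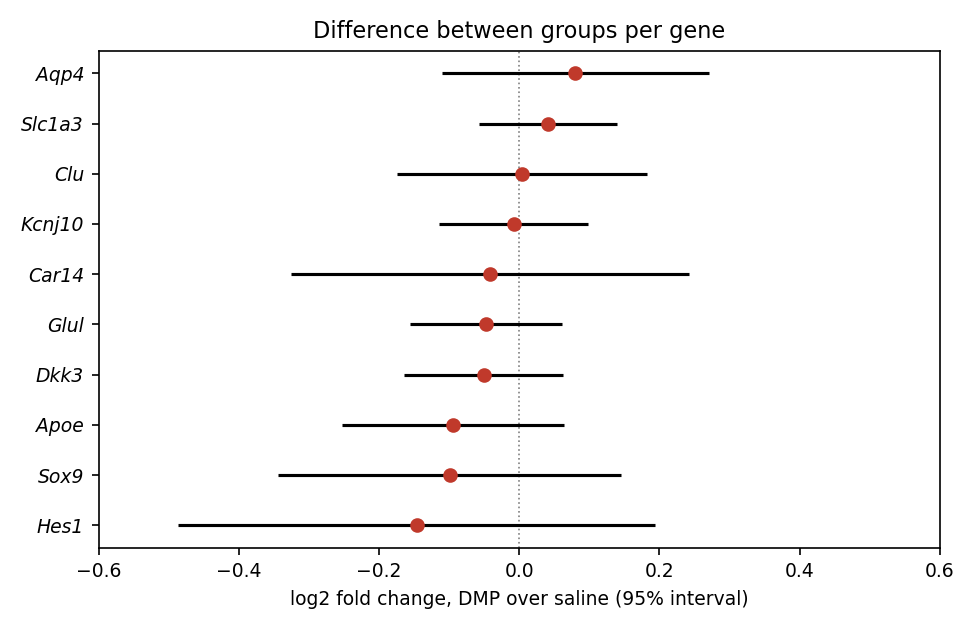
Fitted log2 fold change of DMP over saline for each gene (points) with its 95% interval (lines), in order of the estimate. Every interval crosses 0, and the widest belongs to Hes1, the least counted gene.

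Sox9 and Hes1 encode DNA-binding factors of Müller identity. Sox9 is an HMG-box factor kept on in adult Müller nuclei, and Hes1 is the repressor that Notch signalling switches on in glial precursors. Sox9 had 20.3, 15.0 and 17.5 CPM after DMP, against 17.6, 19.9 and 19.0 CPM after saline. DMP 30 was the highest of the 6 libraries and DMP 31 the lowest, so that the DMP libraries bracketed those of saline. The difference was -0.099 (SE 0.111), and 0.0031 without DMP 31. Hes1 had 7.94, 8.53 and 11.8 CPM after DMP, against 9.76, 9.95 and 11.6 CPM after saline. DMP 30 and DMP 31 lay under all saline libraries and DMP 33 above them, which gave the widest interval of the 10 genes, from 28.6% lower to 14.4% higher around a log2 difference of -0.15 (SE 0.155).

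Because 2 of the 10 genes encode factors that bind DNA, the promoters were read for the letters such factors bind. RefSeq windows of build GRCr8, from 250 bases before to 50 after the start, were found for 7 of the 10 genes (Glul, Slc1a3, Kcnj10, Aqp4, Car14, Hes1 and Apoe). TGGGAA is the core of the site of RBPJ, the Notch effector, CACNAG is the N box bound by Hes repressors, and ACAAAG is a core of SOX sites, each searched on both strands, with 0 overlapping matches in these windows. In the Hes1 window TGGGAA stood at -123 and -109 relative to the start, on the same strand, with N boxes at -204, -171, -97 and -24. This window and those of Slc1a3, Kcnj10 and Aqp4, which share the SOX letters with it, are shown with matches to any of the 3 motifs in capitals.
Hes1, chr11:84212996-84213295, minus strand: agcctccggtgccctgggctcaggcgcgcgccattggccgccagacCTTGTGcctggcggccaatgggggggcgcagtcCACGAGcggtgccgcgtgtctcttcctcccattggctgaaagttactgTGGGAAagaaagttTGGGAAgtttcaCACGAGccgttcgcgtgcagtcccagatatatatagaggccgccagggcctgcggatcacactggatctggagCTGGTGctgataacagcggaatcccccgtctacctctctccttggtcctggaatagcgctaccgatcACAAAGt
Slc1a3, chr2:59557759-59558058, minus strand: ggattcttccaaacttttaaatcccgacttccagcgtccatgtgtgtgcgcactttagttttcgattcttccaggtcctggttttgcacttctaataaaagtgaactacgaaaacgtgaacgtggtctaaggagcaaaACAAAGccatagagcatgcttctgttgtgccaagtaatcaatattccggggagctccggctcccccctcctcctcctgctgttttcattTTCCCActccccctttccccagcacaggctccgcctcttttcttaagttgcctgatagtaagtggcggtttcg
Kcnj10, chr13:87334260-87334559, plus strand: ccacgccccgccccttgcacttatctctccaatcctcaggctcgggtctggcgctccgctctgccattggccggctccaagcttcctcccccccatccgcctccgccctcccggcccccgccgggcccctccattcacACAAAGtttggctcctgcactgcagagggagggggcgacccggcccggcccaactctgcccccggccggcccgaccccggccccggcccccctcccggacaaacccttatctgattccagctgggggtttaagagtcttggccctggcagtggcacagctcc
Aqp4, chr18:6797877-6798176, minus strand: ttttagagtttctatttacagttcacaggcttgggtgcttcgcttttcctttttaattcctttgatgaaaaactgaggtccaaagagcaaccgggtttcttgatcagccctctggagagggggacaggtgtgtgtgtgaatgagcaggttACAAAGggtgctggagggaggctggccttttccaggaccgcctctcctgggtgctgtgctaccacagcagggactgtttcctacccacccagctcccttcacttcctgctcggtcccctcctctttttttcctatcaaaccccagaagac
The SOX letters were present for 4 of the 7 genes, against 19.7% of the 27457 genes with a window. TGGGAA was present for 3 of 7 (Hes1, Slc1a3 and Apoe), against 26.7%, and the N box for 3 of 7 (Hes1, Glul and Apoe), against 44.8%. Apoe had 3 windows, and Glul and Aqp4 also had more than a single window, which gives them more room for a match. The 3 windows of Slc1a3 overlap almost fully and hold the same sites, so they add little room. For Aqp4 the SOX letters were in the window shown and not in its other window. A match of letters describes the sequence and not binding.

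Of 28 other genes of Notch signalling and retinal identity, all tested, 0 passed in edgeR (5 without adjustment, at p under 0.05), with a median of -0.030, 11 above 0 and 17 below. Dll1, a Notch ligand, averaged 5.08 ± 1.02 CPM after DMP and 7.07 ± 0.376 CPM after saline (adjusted p = 0.685), and the receptor Notch2 43.8 ± 7.23 and 54.7 ± 4.69 CPM (adjusted p = 0.718). Hey2, a Hes-related Notch target, averaged 9.81 ± 0.372 CPM after DMP and 7.83 ± 0.319 CPM after saline (adjusted p = 0.690). The groups did not overlap for these 3 genes, with Dll1 and Notch2 on the low side and Hey2 on the high side after DMP.

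Dkk3 encodes a secreted Dickkopf-family glycoprotein that Müller cells make in quantity, and whose effect on Wnt signalling differs from that of the other Dickkopf proteins. It had 1640, 1714 and 1777 CPM after DMP, against 1814, 1765 and 1736 CPM after saline. DMP 30 and DMP 31 lay under every saline library and DMP 33 within their range. The difference was -0.051 (SE 0.051), with an interval from 10.8% lower to 4.4% higher. Among 13 tested of 16 other genes of Dickkopf and Wnt antagonism, 0 passed in edgeR (1 at an unadjusted p under 0.05), and the median was -0.0088. The Wnt coreceptor Lrp5 averaged 16.2 ± 0.613 CPM after DMP and 18.5 ± 1.02 CPM after saline (edgeR adjusted p = 0.991), and the Wnt antagonist Frzb 64.5 ± 1.43 and 60.4 ± 1.13 CPM. Lef1, a transcription factor of the pathway, was low, with 1.75 ± 0.343 CPM after DMP and 1.13 ± 0.343 CPM after saline. The groups did not overlap for Lrp5, which was lower after DMP, or for Frzb and Lef1, which were higher.

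**Figure D3:**
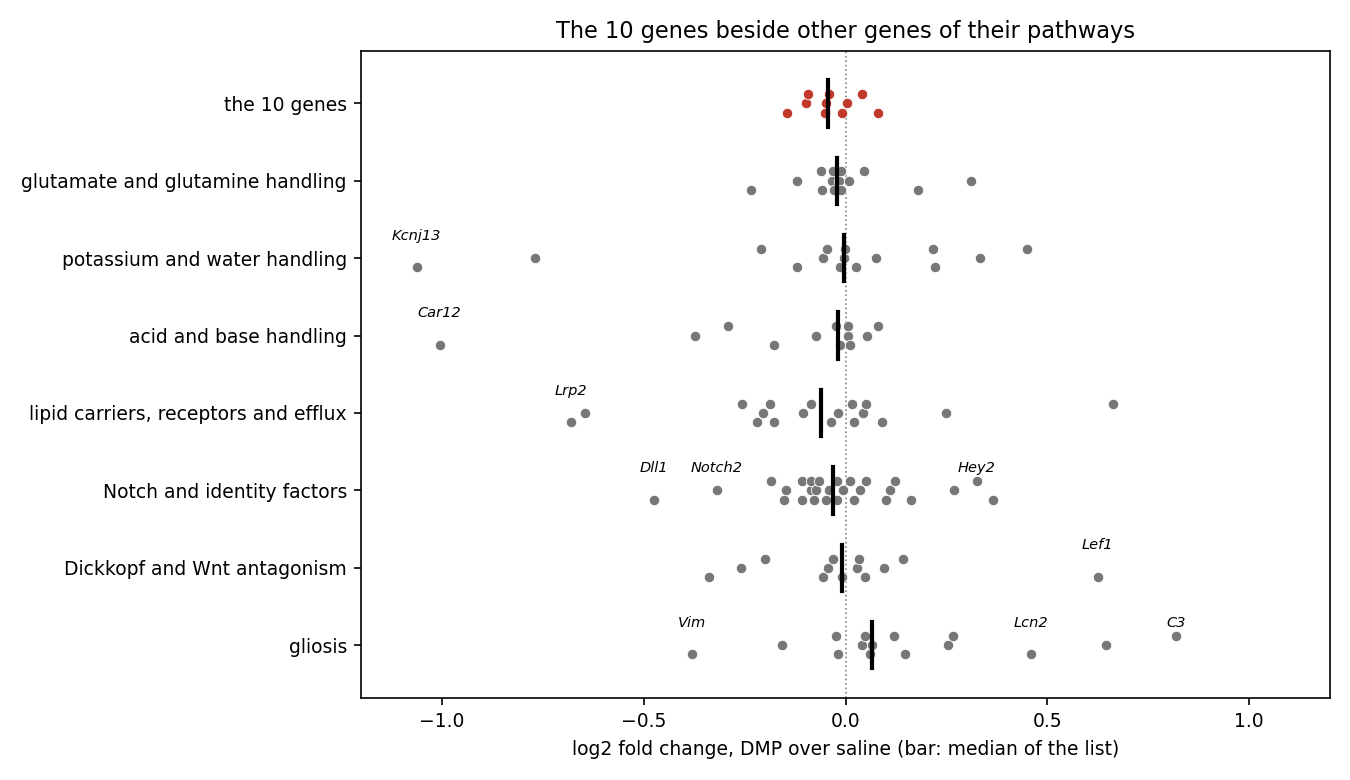
Log2 fold change of DMP over saline for the 10 genes (red, top) and for the tested genes of the 7 pathway lists (grey), with a bar at the median of each list and names at some of the genes of smallest p with a change over 0.3. The 10 genes stay between -0.15 and 0.080, while single genes of other lists reach from -1.06 to 0.82.

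Gliosis genes were set beside the 10. Of 15, all tested, 0 passed in edgeR (2 at an unadjusted p under 0.05), 11 lay above 0 and 4 below, and the median was 0.065. Gfap, the filament protein that stressed Müller cells switch on, had 38.1, 43.0 and 39.2 CPM after DMP, against 20.5, 47.6 and 40.5 CPM after saline. The DMP libraries of Gfap lay within the saline range, which saline 30 stretched downwards. Vim, the filament protein of resting and reactive Müller cells, had 104.3, 100.2 and 111.9 CPM after DMP, against 143.5, 134.7 and 133.8 CPM after saline, with no overlap (log2 fold change -0.38, SE 0.054, edgeR adjusted p = 0.0582). It passed in edgeR with the stricter filter, at an adjusted p of 0.04, and without DMP 33, at 0.0141, and with DESeq2. With the library number as a block it also passed in edgeR, at 0.0308. Vim did not pass with limma-voom (0.0831) or limma on log2 FPKM (0.374). In edgeR it did not pass with median-of-ratios factors (0.0574), without the count filter (0.0527) or with any other library left out (0.0858 to 0.235). Vim is also abundant in fibroblasts, whose markers were lower after DMP as given above, and their part in its value was not tested. The complement component C3 averaged 116.4 ± 43.9 CPM after DMP and 66.0 ± 8.78 CPM after saline (edgeR adjusted p = 0.338). Its groups did not overlap, at 79.3 to 164.8 CPM after DMP and 56.0 to 72.5 CPM after saline. Lcn2, an iron-binding protein of reactive glia, averaged 14.5 ± 5.27 and 10.5 ± 3.37 CPM, with overlapping groups.

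Levels can be compared between the genes only per length, for which the FPKM values computed by the authors were used. Over all 6 libraries Apoe was highest, at 778.4 to 943.3 FPKM, then Glul (476.7 to 516.8), Dkk3 (245.5 to 274.2), Car14 (124.4 to 185.5), Clu (112.4 to 145.2), Slc1a3 (96.4 to 104.4), Aqp4 (82.7 to 109.9), Kcnj10 (23.6 to 25.5), Hes1 (4.16 to 6.34) and Sox9 (1.54 to 2.06). Ranges overlapped between Car14 and Clu and between Slc1a3 and Aqp4, so these neighbours are not ordered beyond their spread, and the other steps were clear of it. The deposited FPKM implied a length for each gene, the count over FPKM and total count. This length exceeded the gene span for 680 of the 10407 genes of at least 10 CPM. Among them was Sox9, with 9.69 kb against a span of 5.51 kb in the same table. Apoe (0.518 kb) and Car14 (0.865 kb) were short beside the median of 3.49 kb, though within their spans. Such a length sets the FPKM of a gene in all libraries alike, so the comparison of DMP with saline is unaffected. Places in this order depend on these lengths and are uncertain, above all for Apoe, Car14 and Sox9.

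**Figure D4:**
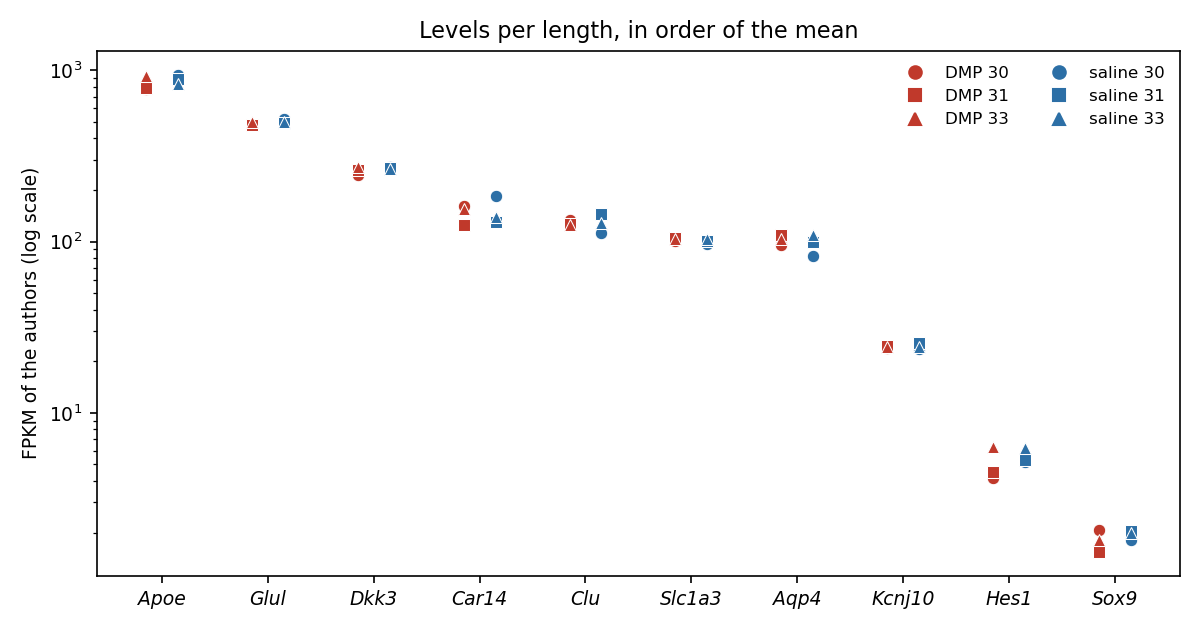
FPKM computed by the authors (log axis) for each gene in each library, with DMP to the left of saline, in falling order of the mean over 6 libraries. Apoe reaches 943.3 FPKM and Sox9 lies at 1.54 to 2.06 FPKM.

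Beside the 10, 14 other Müller glia genes were read, all of them tested and detected. In whole retina their detection does not show which cells made the 10 transcripts. Rlbp1, the retinaldehyde-binding protein shared by Müller cells and pigment epithelium, was at 90.9 FPKM in DMP libraries and 95.8 FPKM in saline libraries, and Aldoc, the glial aldolase, at 426.4 and 451.0 FPKM. As with the 10 genes, 0 of these 14 passed in edgeR, DESeq2 or limma-voom (1 at an unadjusted p under 0.05 in edgeR), the median log2 fold change was -0.0047, and their summed level was 2618 to 2716 CPM after DMP and 2615 to 2759 CPM after saline. The 10 genes summed to 5160 to 5369 CPM after DMP and 5285 to 5459 CPM after saline, and the ranges overlapped. Aqp4, Kcnj10, Slc1a3 and Glul are also made by retinal astrocytes. The 5 astrocyte markers summed to 78.4 to 96.3 CPM after DMP and 113.7 to 137.1 CPM after saline, with no overlap. Of these 5, the one below 0 in log2 fold change was Gja1, a connexin of astrocytes and also of fibroblasts and epithelia, with 6.99, 13.2 and 27.0 CPM after DMP, against 65.6, 43.9 and 70.4 CPM after saline (edgeR adjusted p = 0.119). The other 4 markers (Gfap, Pax2, S100b and Aldh1l1) had log2 fold changes above 0.

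**Figure D5:**
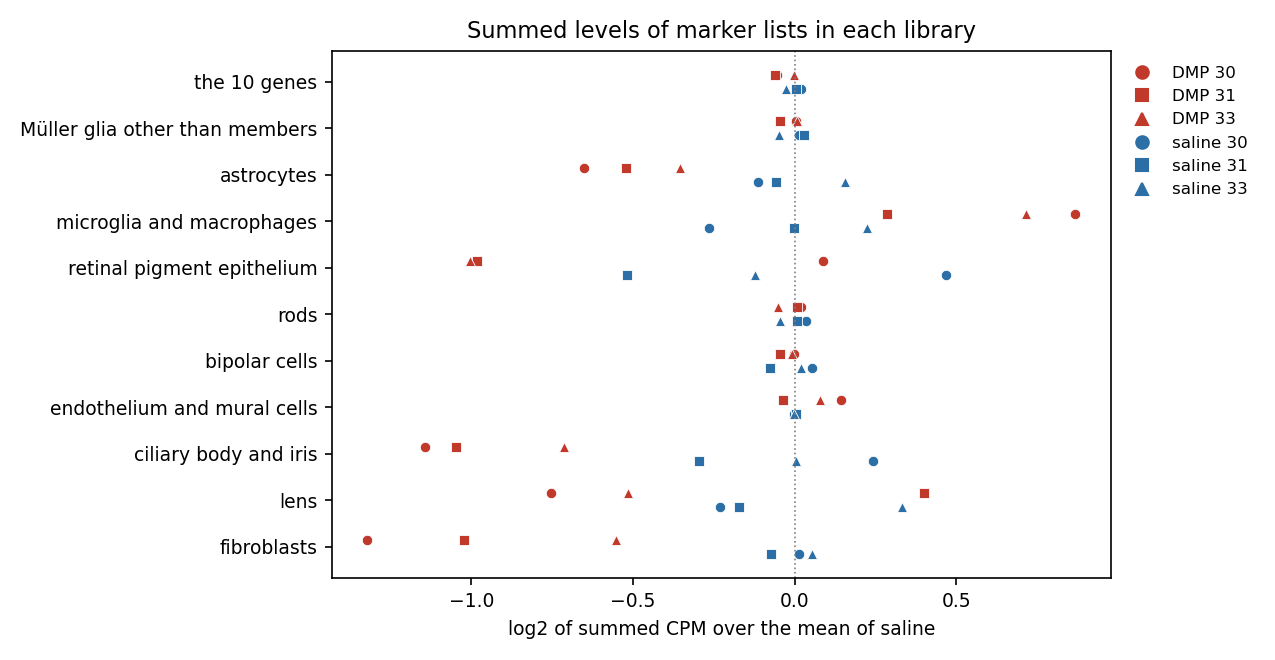
Summed CPM of the 10 genes and of each marker list in each library, as log2 of the ratio to the mean of the 3 saline libraries, with DMP drawn above saline. The 10 genes, other Müller glia genes, rods and bipolar cells stay close to 0, and microglial markers lie higher and fibroblast and ciliary markers lower after DMP. Summed astrocyte markers also lie lower after DMP, although 4 of the 5 had log2 fold changes above 0.

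Single libraries differed more than the groups for several of the genes. Saline 30 was the highest of the 6 libraries for Glul, Dkk3, Car14 and Apoe and the lowest for Slc1a3, Kcnj10, Aqp4 and Clu, so that 8 of the 10 genes had an extreme there. DMP 31 was the lowest for Glul, Car14, Sox9 and Apoe and the highest for Slc1a3 and Aqp4. Within groups, the coefficient of variation ran from 0.707% (Kcnj10) to 22.2% (Hes1) after DMP and from 2.22% (Dkk3) to 20.2% (Car14) after saline. DMP 30, which stood apart from the other libraries over all genes, at -53.0 on the leading principal component where they lay between -7.01 and 23.4, was extreme for 3 of the 10 (Sox9, Dkk3 and Hes1). Without DMP 30 the groups did not overlap for Slc1a3 and Sox9, and without DMP 33 for Glul, Dkk3, Hes1 and Apoe. Smaller groups separate more easily, and the share of all genes without overlap was not taken with a library left out. These counts therefore cannot be read as a shift of the 10 genes. In edgeR 0 of the 10 passed with any 1 library left out. The share of counts taken by 18S ribosomal RNA (Rn18s), which oligo(dT) selection should remove, was 0.0439% to 0.159% after DMP and 0.0121% to 0.0338% after saline. Every DMP library lay above every saline library, so this share and the treatment cannot be told apart. Its part in the other values was not tested.

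Profiles over the 6 libraries were also compared gene by gene, as centred log2 CPM among 10406 other genes of at least 10 CPM. The nearest to Glul were Fbxw7, Gripap1 and Myh10, at a root mean square difference of 0.0098 to 0.014, against a median of 0.084 over all compared. The nearest to Apoe, the gene of smallest p among the 10, were Mmab, Ptpru and B3gat1, at 0.018 to 0.025, against a median of 0.13. The Glul profile is flat, so genes that varied little lie fairly near it. Apoe varied more, from 407.4 to 492.1 CPM, as did its 3 nearest, such as B3gat1 at 75.8 to 89.0 CPM. With 6 libraries, nearness describes these libraries only.

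On the build of the files, mRatBN7.2, Glul lies on chromosome 13 from 65969064 to 66035121, Kcnj10 on chromosome 13 from 84802026 to 84835383, Slc1a3 on chromosome 2 from 57755495 to 57830605 and Car14 on chromosome 2 from 183442263 to 183449207. Aqp4 lies on chromosome 18 from 6507903 to 6524558, Sox9 on chromosome 10 from 97806485 to 97811994, Hes1 on chromosome 11 from 70705763 to 70708176 and Clu on chromosome 15 from 40161068 to 40200315. Dkk3 lies on chromosome 1 from 166237969 to 166281271 and Apoe on chromosome 1 from 79353924 to 79357852. Of the 10, 3 overlap a gene on the opposite strand: Clu shares 11799 bases with Scara3, Car14 851 bases with Aph1a and Glul 783 bases with Rgsl1. Mean counts were 1507 for Scara3, 2464 for Aph1a and 0.7 for Rgsl1. The library kit marked strand, but the sources used here do not say whether counting used it, so reads within the shared bases may be counted to either gene.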

How the data were processed

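Polyadenylated RNA of 6 rat retina samples was sequenced, 3 after DMP and 3 after saline, with dUTP in the second strand and PCR, per the labels' protocols, which mention no molecular identifiers, so intervals do not cover amplification bias. The authors' deposited table held estimated counts, already whole numbers, for 34335 genes, and their deposited FPKM table held 24744. Both used reads trimmed with cutadapt 1.9 and, per the submitters' processing notes, build mRatBN7.2; the sources used here name no aligner or counter. Counts of 4 were commoner than 3 or 5 in every library, so low values are not plain read counts. Totals were 47842234 to 53255925 per library.

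Genes were filtered by edgeR's default (count 10, total 15), leaving 18571, and scaled by TMM factors. Groups were compared by edgeR's quasi-likelihood test (two-sided; edgeR 4.0.16, R 4.3.3), with Benjamini-Hochberg adjustment; SE is the absolute log2 fold change over the square root of F. DESeq2 1.42.0, limma-voom (limma 3.58.1), other filters and scaling, a replicate block, FPKM (limma on log2 with pseudocount 0.1) and leaving out each library were alternatives. The fit was tested on simulated data. The 10 genes, the lists (213 symbols, all matched, 6 through a gene ID or alias) and tests were chosen with earlier results of these data known. Named were all 10, the 3 genes of smallest p per pathway list, and the 3 nearest profiles to Glul and Apoe; Gfap, Gja1, Rlbp1 and Aldoc were added after their values were seen. Some genes of the potassium and water list are not reported here.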

Additional observations from a re-analysis of the deposited data

How the results depend on the processing

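The count of the 10 genes past the threshold was 0 under each of the 13 alternatives, and the median of their log2 fold changes stayed below 0, from -0.067 to -0.0044 with a library left out. Signs of single differences were less firm: with a library left out they ran from -0.032 to 0.023 for Kcnj10 (above 0 without saline 31), from -0.023 to 0.17 for Aqp4, from -0.14 to 0.13 for Car14, from -0.21 to 0.0031 for Sox9 and from -0.084 to 0.099 for Clu (below 0 without DMP 30, saline 30 or saline 33), none of them past the threshold. Groups did not overlap for 1 of the 10 with median-of-ratios factors in edgeR or with DESeq2's factors (Glul in each). With a library left out this held for 0 to 4 genes. The share over all genes was not taken in these settings, and smaller groups separate more easily. Over all genes the number past the threshold was 4 in edgeR, 90 with DESeq2, 13 with the stricter filter, 1 with limma on log2 FPKM and 0 to 81 with a library left out. With DESeq2 and with the stricter filter 1 lipid gene (Lrp2) and 1 gliosis gene (Vim) passed, and the lipid median was -0.00084 with the stricter filter. With a library left out, 0 to 1 gene passed in each of the potassium and water, lipid and gliosis lists. List medians then ran from -0.041 to 0.038 for potassium and water, from -0.10 to 0.0011 for lipid, from -0.052 to 0.090 for Dickkopf and Wnt and from -0.049 to 0.34 for gliosis. With the number as a replicate block, 45 genes passed, among them 1 each of the potassium and water list, the lipid list (Lrp2) and the gliosis list (Vim), and 0 of the 10. Libraries with the same number deviated together at correlations of 0.13, 0.054 and 0.073, and 4 of 6 libraries were closest to their own number. These values do not settle whether the numbers pair the samples. The main fit used no block because the labels do not say what the numbers mark. The cause of the shifts between settings was not tested.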
